A study of Mus musculus with 6 samples.

Results

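The 8 genes described here are Pml and the tripartite motif (TRIM) genes Trim21, Trim25, Trim30a, Trim34a, Trim14, Trim26 and Trim56, chosen by symbol from 24062 gene symbols counted. All 8 were present and all 8 passed the count filter, among 13185 genes tested. RNA came from NIH3T3 cells, an established mouse fibroblast line, 48 h after transfection with an siRNA, as a test of how the transcription elongation factor SPT6 (gene symbol Supt6) bears on transcription stimulated by interferon beta (IFN-beta). The groups were SPT6 siRNA with IFN-beta at 100 units/ml for 4 h (2 libraries), negative control siRNA with the same IFN-beta treatment (2 libraries), SPT6 siRNA untreated (1 library) and negative control siRNA untreated (1 library). A single siRNA was named for SPT6. Untreated libraries carry a 0 h title, so changes over the 4 h and changes from IFN-beta cannot be told apart. Separate cultures are not stated for the replicates, and the p-values reflect the variation among these libraries, possibly technical.

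TRIM proteins carry a coiled coil and B-box domains, in most of them behind a RING domain that transfers ubiquitin to other proteins. Interferon is known to raise the RNA of many of them, and several act on the sensors that start the interferon response. TRIM25 acts on the RNA sensor RIG-I, TRIM56 on the DNA sensing adaptor STING, and TRIM21 binds antibody that enters the cytosol on a pathogen. TRIM26 acts on the transcription factor IRF3, mouse TRIM30a restrains NF-kappaB signalling, TRIM14 lacks the RING domain and serves as an adaptor at mitochondria, and PML (also named TRIM19) builds the nuclear bodies that carry its name.

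Counts assigned to genes ran from 7935961 to 17596498 per library, and the shallower library of each siRNA pair was the one with SPT6 siRNA. The targeted gene Supt6 stood at 108 and 88.4 CPM (counts scaled to library size and TMM factor) with SPT6 siRNA and IFN-beta, against 177 and 189 CPM with control siRNA and IFN-beta, and at 101 CPM against 175 CPM in the untreated pair. Its log2 difference with IFN-beta was -0.90 ± 0.18 (SE), with an adjusted p = 0.247 by the edgeR quasi-likelihood test and 0.0306 by DESeq2. All 9 fibroblast markers examined were detected, from a mean of 86 CPM for Thy1 to 4511 CPM for Fn1. The lymphocyte markers Cd3e and Cd3g and the epithelial marker Epcam had 0 counts in all 6 libraries.

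The genes lie on 6 chromosomes (positions in GRCm38, GENCODE M21). Trim34a (chromosome 7, 104244457 to 104262234, plus strand) and Trim30a (chromosome 7, 104409025 to 104465193, minus strand) belong to 1 cluster of related genes, and Trim21 lies elsewhere on chromosome 7 (102557921 to 102565486, minus strand). Trim25 lies on chromosome 11 (88999376 to 89020293, plus strand), Trim26 on chromosome 17 (36837134 to 36859398, plus strand) and Trim56 on chromosome 5 (137105644 to 137116209, minus strand). Pml lies on chromosome 9 (58218076 to 58249786, minus strand) and Trim14 on chromosome 4 (46493781 to 46536141, minus strand). Of the 4338 exonic bases of Trim14, 1356 are shared with exons of Nans on the opposite strand. Whether reads there were counted to Trim14 is not known, because the strand setting of the counting is not given in the sources used here. Trim34a shares 609 of its 2592 exonic bases with the antisense gene Gm47248.

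Promoter windows are shown because the members differed in whether they hold the core of the interferon-stimulated response element, the DNA element bound by the transcription factor complex that interferon activates. RefSeq windows of 250 bases before to 50 after the start were found for 7 of the 8 genes, 8 windows in all, and each was searched on both strands for GAAA, any 2 bases and GAAA again. It was in 5 of the 8 windows, those of 4 genes (Trim21, Trim34a, Trim30a and Trim26), against 3.44% of 32851 windows of all genes and 2.95% of the 12429 windows of genes tested. Matches to this core are in capitals, and each sequence is written 5′ to 3′ on the strand of the gene. Trim25, the member with the smallest p in each IFN-beta response, is shown as one without a match.
Trim21 (GRCm38.p6, chr7:102565433-102565732, minus strand): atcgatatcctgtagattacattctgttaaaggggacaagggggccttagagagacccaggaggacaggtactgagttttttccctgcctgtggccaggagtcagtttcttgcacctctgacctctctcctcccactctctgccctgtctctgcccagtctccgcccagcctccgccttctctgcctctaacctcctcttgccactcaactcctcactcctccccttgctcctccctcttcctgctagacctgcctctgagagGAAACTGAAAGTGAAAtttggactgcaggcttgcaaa
Trim34a (GRCm38.p6, chr7:104244207-104244506, plus strand): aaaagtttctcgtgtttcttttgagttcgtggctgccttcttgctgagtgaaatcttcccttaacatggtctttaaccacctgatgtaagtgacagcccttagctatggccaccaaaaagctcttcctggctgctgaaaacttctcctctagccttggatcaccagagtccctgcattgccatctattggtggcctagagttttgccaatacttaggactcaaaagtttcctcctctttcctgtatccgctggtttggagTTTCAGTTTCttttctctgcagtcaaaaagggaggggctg
Trim30a (GRCm38.p6, chr7:104465144-104465443, minus strand): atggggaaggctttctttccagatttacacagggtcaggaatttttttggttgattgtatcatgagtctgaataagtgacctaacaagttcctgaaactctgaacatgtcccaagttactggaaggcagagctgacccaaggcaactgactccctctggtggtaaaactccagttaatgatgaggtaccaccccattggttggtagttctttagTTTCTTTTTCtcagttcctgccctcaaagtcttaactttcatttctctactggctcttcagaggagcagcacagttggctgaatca
Trim26 (GRCm38.p6, chr17:36836896-36837195, plus strand): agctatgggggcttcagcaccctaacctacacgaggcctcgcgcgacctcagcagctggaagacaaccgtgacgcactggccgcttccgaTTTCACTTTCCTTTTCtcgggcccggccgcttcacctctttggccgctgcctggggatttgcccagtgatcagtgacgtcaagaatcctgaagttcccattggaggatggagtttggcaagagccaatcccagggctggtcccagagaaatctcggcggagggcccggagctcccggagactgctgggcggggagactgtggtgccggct
Trim25 (GRCm38.p6, chr11:88999153-88999452, plus strand): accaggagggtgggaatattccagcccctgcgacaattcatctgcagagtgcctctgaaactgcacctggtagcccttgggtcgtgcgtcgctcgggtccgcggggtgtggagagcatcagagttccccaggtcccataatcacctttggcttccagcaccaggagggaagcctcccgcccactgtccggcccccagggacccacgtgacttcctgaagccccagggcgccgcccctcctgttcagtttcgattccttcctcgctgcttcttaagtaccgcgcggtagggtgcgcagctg

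In Trim21 a pair of matches overlapped, at positions 14 to 23 and 20 to 29 counted from the start as 1. The Trim34a match lay at positions 11 to 20, and that of Trim30a 36 to 27 bases before the start shown, with the same letters at positions 3 to 12 of its other window. Trim26 held an overlapping pair from 160 to 145 bases before the start. The windows of Trim25, Trim56 and Pml held no match, which says only that these letters are not in these 300-base windows. The core of the gamma-activated site, TTCNNNGAA, was in no window of the 8 genes and in 8.3% of all windows.

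The first question was how these genes responded to IFN-beta with each siRNA. Trim21, Trim34a, Trim25 and Trim30a lay more than 2-fold above the untreated library in every IFN-beta library, with either siRNA. Pml, Trim56 and Trim26 did so in both control siRNA libraries, and Trim14 in none of the groups. Both IFN-beta libraries lay above the untreated library for 7 of the 8 genes with SPT6 siRNA (34.5% of all genes tested) and for 7 of 8 with control siRNA (35.2%). They were over 2-fold higher for 4 of the 8 genes with SPT6 siRNA (2.75% of all genes tested) and for 7 of 8 with control siRNA (2.67% of all genes tested). The contrast of 4 and 7 rests partly on libraries near the cut. Trim26 just passed in control siRNA replicate 2 (72.6 CPM against 36.2 CPM untreated). Trim56 fell just short in SPT6 siRNA replicate 2 (111 against 57.1 CPM), as did Pml in replicate 1 (69.8 against 37.3 CPM). Trim26 was further below the cut in SPT6 siRNA replicate 2 (45.8 against 35 CPM). The fitted difference of the responses called none of the 8. Over all genes, the edgeR quasi-likelihood test called Trim25 higher with SPT6 siRNA (0.0455% of 13185 genes were called) and Trim21 and Trim25 higher with control siRNA (0.137% of genes were called).

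**Figure D1:**
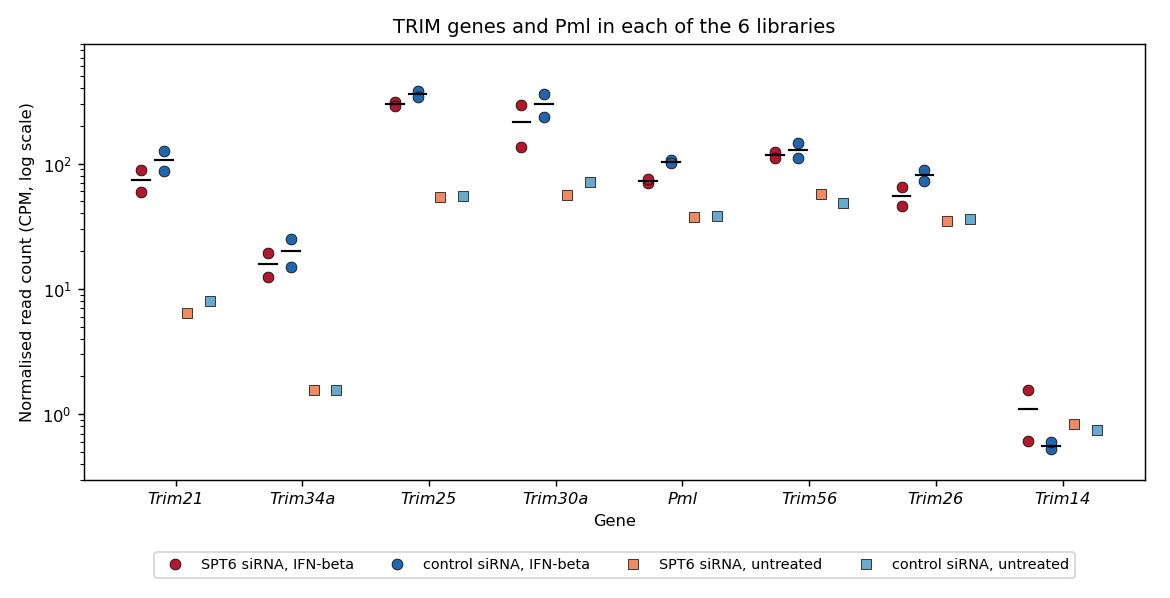
Normalised read counts (CPM, log axis) of the 8 genes in the 6 libraries; circles are IFN-beta libraries with a bar at their mean (n = 2) and squares are the single untreated libraries. For 7 genes every IFN-beta library lies above the untreated library of the same siRNA, whereas Trim14 stays between 0.527 and 1.57 CPM.

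Trim21, the antibody receptor and ligase, showed the largest fitted difference of the 8 genes with either siRNA over all libraries, though without control siRNA IFN-beta replicate 2 it was at 3.98 and Trim34a at 3.99 with control siRNA. It stood at 88.0 and 58.9 CPM with SPT6 siRNA and IFN-beta, against 6.47 CPM with SPT6 siRNA untreated, a log2 difference of 3.50 ± 0.42 (SE; adjusted p = 0.0769, edgeR). Under control siRNA Trim21 reached 126 and 87.4 CPM with IFN-beta, against 7.97 CPM untreated, a log2 difference of 3.74 ± 0.42 (adjusted p = 0.0436). That call was lost without control siRNA IFN-beta replicate 1 (adjusted p = 0.0639). Without control siRNA IFN-beta replicate 2, or without SPT6 siRNA IFN-beta replicate 2, the response with SPT6 siRNA was called (adjusted p = 0.0421 and 0.0379).

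Trim34a, a gene of the same cluster as Trim30a, was nearly silent before treatment, with 13 counts in the SPT6 siRNA library and 19 in the control siRNA library. It stood at 19.2 and 12.4 CPM with SPT6 siRNA and IFN-beta, against 1.56 CPM untreated (95% counting interval 0.83 to 2.67). Under control siRNA Trim34a reached 24.9 and 15 CPM with IFN-beta, against 1.56 CPM untreated (0.94 to 2.44). Its log2 differences, 3.33 ± 0.56 with SPT6 siRNA and 3.67 ± 0.54 with control siRNA, were close in size to those of Trim21 and did not pass the edgeR test (adjusted p = 0.237 and 0.122).

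Trim25, the RIG-I ligase, differed least between IFN-beta replicates, on the log2 scale, among the 4 most responsive members. It stood at 312 and 289 CPM with SPT6 siRNA and IFN-beta, against 53.7 CPM untreated, and rose by log2 2.48 ± 0.24 (adjusted p = 0.0492). Control siRNA libraries stood at 382 and 338 CPM with IFN-beta, against 55.2 CPM untreated, and rose by log2 2.70 ± 0.24 (adjusted p = 0.0226). The call with SPT6 siRNA was lost without SPT6 siRNA IFN-beta replicate 1 (adjusted p = 0.0712).

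Trim30a, the mouse feedback regulator of NF-kappaB, differed between its IFN-beta replicates by more than the other 3 most responsive members did with SPT6 siRNA. It stood at 291 and 136 CPM with SPT6 siRNA and IFN-beta, against 56.4 CPM untreated. Control siRNA libraries stood at 357 and 236 CPM with IFN-beta, against 71.5 CPM untreated. Replicate 2 was the lower library in both IFN-beta groups, and the log2 differences of 1.92 ± 0.54 with SPT6 siRNA and 2.05 ± 0.54 with control siRNA did not pass the edgeR test (adjusted p = 0.728 and 0.443).

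Pml, Trim56 and Trim26 were expressed before treatment and differed less with IFN-beta. Pml stood at 69.8 and 75.2 CPM with SPT6 siRNA and IFN-beta, against 37.3 CPM untreated (log2 difference 0.96 ± 0.22). With control siRNA it stood at 107 and 100.2 CPM with IFN-beta, against 38.2 CPM untreated (1.44 ± 0.22). Trim56, the STING ligase, stood at 123 and 111 CPM with SPT6 siRNA and IFN-beta, against 57.1 CPM untreated (1.04 ± 0.25). With control siRNA it stood at 146 and 111 CPM with IFN-beta, against 48.6 CPM untreated (1.40 ± 0.25).

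Trim26, the IRF3 ligase, had the smallest difference of these 3 genes with either siRNA. It stood at 64.8 and 45.8 CPM with SPT6 siRNA and IFN-beta, against 35.0 CPM untreated (0.66 ± 0.29). With control siRNA it stood at 88.9 and 72.6 CPM with IFN-beta, against 36.2 CPM untreated (1.16 ± 0.30). All IFN-beta libraries of these 3 genes lay above the untreated library of the same siRNA, and no difference passed the edgeR test (adjusted p from 0.502 to 0.853 with SPT6 siRNA and from 0.125 to 0.408 with control siRNA).

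Trim14, the mitochondrial adaptor, was near the limit of detection. It had 6 and 18 counts with SPT6 siRNA and IFN-beta, 7 and 10 with control siRNA and IFN-beta, 7 with SPT6 siRNA untreated and 9 with control siRNA untreated. A level of 0.839 CPM with SPT6 siRNA untreated had a 95% counting interval of 0.337 to 1.73 CPM, and 0.74 CPM with control siRNA untreated one of 0.338 to 1.4 CPM. A response of this gene was not detectable at this depth (log2 difference 0.39 ± 0.84 with SPT6 siRNA and -0.39 ± 0.82 with control siRNA). Its value with SPT6 siRNA was -0.47 without SPT6 siRNA IFN-beta replicate 2.

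**Figure D2:**
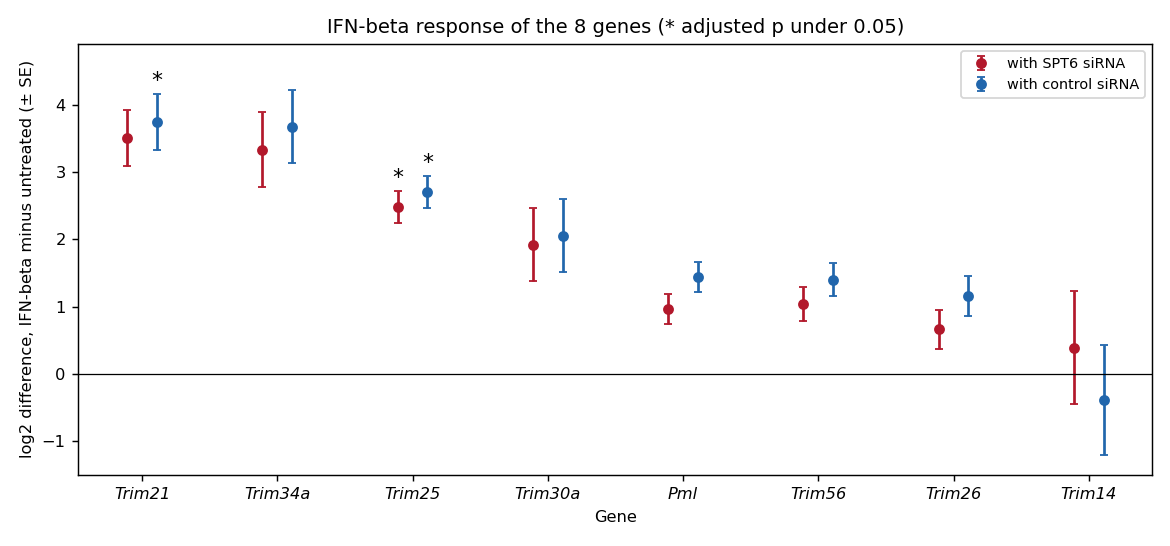
Log2 difference between IFN-beta and untreated libraries (± SE, edgeR) with SPT6 siRNA and with control siRNA; a star marks an adjusted p under 0.05. The differences run from 0.39 (Trim14) to 3.50 (Trim21) with SPT6 siRNA and from -0.39 to 3.74 with control siRNA.

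Over the 8 genes the median log2 difference was 1.48 with SPT6 siRNA and 1.75 with control siRNA, where the medians of all genes were 0.00 and -0.01. At an unadjusted p under 0.05, 6 of the 8 were higher with SPT6 siRNA (3.84% of all genes) and 7 of 8 with control siRNA (5.29% of all genes). DESeq2 called 4 of them higher with SPT6 siRNA (Trim21, Trim25, Trim30a and Trim34a), as it did 0.948% of all genes. With control siRNA it called 6 higher (these 4, Trim56 and Pml), as it did 1.48% of all genes. The untreated libraries are single and were assumed to vary like the IFN-beta libraries. In these bulk samples, fewer responding cells and less RNA per cell cannot be told apart.

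Levels between genes were compared per kilobase of exon (GENCODE M21), as CPM per kb. Untreated, Trim30a was the highest of the 8 at 13.7 CPM per kb with SPT6 siRNA and 17.4 with control siRNA, ahead of Trim25 at 9.34 and 9.6. With IFN-beta, Trim30a reached 70.8 and 33.2 CPM per kb with SPT6 siRNA and 86.9 and 57.5 with control siRNA, and Trim25 reached 54.3 and 50.2 with SPT6 siRNA and 66.4 and 58.7 with control siRNA. The order of these 2 genes therefore lies within the spread of the libraries in both IFN-beta groups.

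Trim21 showed the largest change of place. It was among the lower members untreated, at 1.74 CPM per kb with SPT6 siRNA and 2.15 with control siRNA, below Pml (6.69 and 6.86), Trim56 (6.15 and 5.23) and Trim26 (5.1 and 5.28). With IFN-beta it lay above all 3, at 23.7 and 15.9 CPM per kb with SPT6 siRNA and 34 and 23.5 with control siRNA. Pml was at 12.5 and 13.5 with SPT6 siRNA and 19.3 and 18 with control siRNA. Trim56 overlapped Pml with SPT6 siRNA, at 13.3 and 12. Among 12546 tested genes with a length, Trim21 stood at the 23.6 percentile untreated and the 79.9 percentile with IFN-beta under SPT6 siRNA, and at the 26.5 and 86.4 percentiles under control siRNA. Trim56 and Trim26 overlapped in the control siRNA libraries with IFN-beta (15.7 and 12 against 12.9 and 10.6 CPM per kb). Trim34a followed at 7.39 and 4.77 with SPT6 siRNA and 9.61 and 5.79 with control siRNA, and Trim14 was last in every group, at most 0.361.

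The next question was whether SPT6 siRNA changed the level of these genes in IFN-beta treated cells. The members other than Trim14 averaged lower with SPT6 siRNA, by log2 differences from -0.55 to -0.13, where the median of all genes was -0.02. The edgeR test called none of the 8 (0% of all genes were called). For Trim25, Trim26 and Pml the higher SPT6 siRNA library was below the lower control siRNA library, 3 of 8 genes against 21.3% of all genes tested. The most negative differences were those of Trim26 (55.3 CPM ± 13.4 with SPT6 siRNA and 80.8 CPM ± 11.5 with control siRNA, SD, n = 2 each; log2 -0.55 ± 0.23), Trim21 (-0.54 ± 0.27) and Pml.

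Pml averaged 72.5 CPM ± 3.76 with SPT6 siRNA and 104 CPM ± 5.03 with control siRNA (SD, n = 2 each). Its log2 difference was -0.52 ± 0.17, and by edgeR across all genes it was the only member with an unadjusted p under 0.05. Of all genes, 4.31% were lower at that level, and the adjusted p of Pml was 0.361 by edgeR. Trim25 averaged 301 CPM ± 16.7 with SPT6 siRNA and 360.1 CPM ± 31.3 with control siRNA, a log2 difference of -0.26 ± 0.17. Its groups did not overlap, and the difference did not pass the edgeR test (adjusted p = 0.575).

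For Trim21, Trim30a, Trim34a and Trim56 the groups overlapped, with SPT6 siRNA replicate 1 above control siRNA replicate 2 in each. For Trim21 these libraries were at 88 and 87.4 CPM. Within each replicate number, 7 of 8 genes, these among them, were lower with SPT6 siRNA, against 36.5% of all genes tested. In replicates 1 and 2 Trim21 differed by log2 -0.52 and -0.57, and Trim56 by -0.24 and, after rounding, 0. The labels do not say that a number marks a shared culture. Trim30a averaged 214 CPM ± 109 with SPT6 siRNA and 297 CPM ± 85.4 with control siRNA (log2 -0.47 ± 0.40, but -1.14 without SPT6 siRNA replicate 1 and -0.04 without SPT6 siRNA replicate 2). Trim34a differed by -0.34 ± 0.34 and Trim56 by -0.13 ± 0.19. Without control siRNA IFN-beta replicate 1, Trim34a and Trim56 were at 0.08 each and the median of the 8 genes, -0.41 over all libraries, was -0.15. Without SPT6 siRNA IFN-beta replicate 2 that median was -0.14, and it was -0.61 without control siRNA replicate 2 and -0.59 without SPT6 siRNA replicate 1. Trim14 was higher in both SPT6 siRNA libraries, at 0.612 and 1.57 CPM against 0.527 and 0.594 CPM with control siRNA (log2 0.96 ± 0.65), a pattern shared by 22.7% of all genes tested and resting on at most 18 counts.

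**Figure D3:**
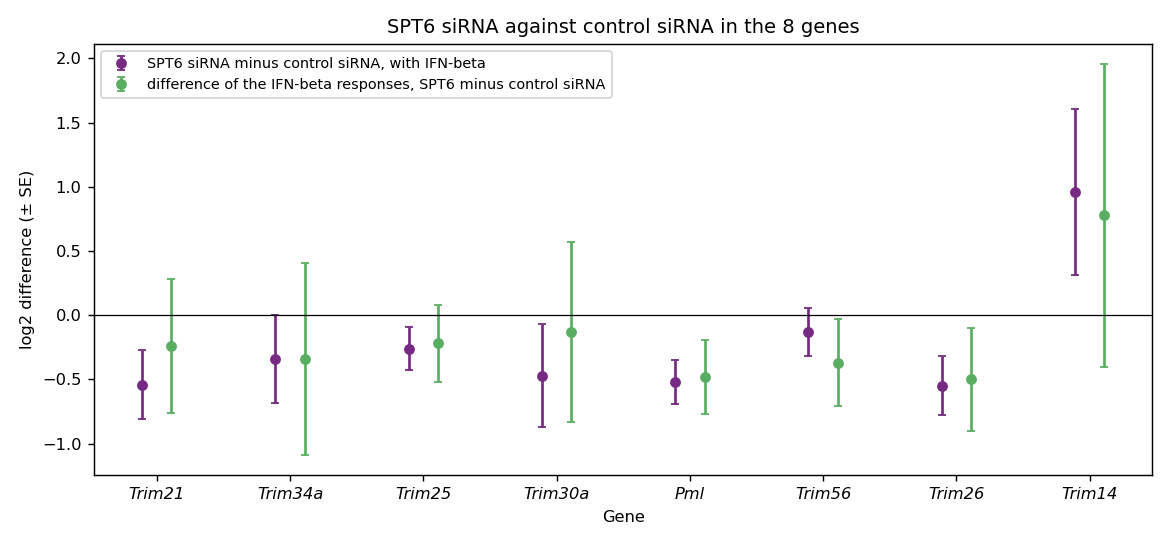
Log2 difference between SPT6 siRNA and control siRNA with IFN-beta, and difference of the IFN-beta responses (SPT6 siRNA minus control siRNA), each ± SE (edgeR). Of the 8 genes 7 lie below 0 on both measures and none passed the test. Both measures use the same IFN-beta libraries, so they are not independent. The medians of all genes were -0.02 and -0.01. Without control siRNA IFN-beta replicate 1, 5 and 4 of the 8 genes were below 0.

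No gene of the 13185 was called by edgeR between the siRNAs, with 1538 (11.7%) at an unadjusted p under 0.05, while DESeq2 called 62 (none of the 8) and limma-voom 0. The 9 fibroblast markers had a median log2 difference of -0.47, with 8 of 9 below 0, and summed to 13536 and 12707 CPM with SPT6 siRNA and IFN-beta, against 19460 and 17010.4 CPM with control siRNA and IFN-beta. In the untreated pair they summed to 14699 CPM with SPT6 siRNA and 18697 CPM with control siRNA. The 6 macrophage markers counted summed to 15.9 and 18.4 CPM with SPT6 siRNA and IFN-beta, against 8.96 and 7.72 CPM with control siRNA and IFN-beta, with Ptprc at a mean of 0.129 CPM over all libraries. The part of these differences in the lower TRIM and Pml levels was not tested.

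The untreated pair set 1 library against 1. The ratio of SPT6 siRNA to control siRNA was 0.973 for Trim25 (95% counting interval 0.861 to 1.1), 0.976 for Pml (0.843 to 1.13) and 0.966 for Trim26 (0.83 to 1.12). Trim30a stood lower, at 56.4 CPM with SPT6 siRNA and 71.5 CPM with control siRNA, a ratio of 0.788 (0.703 to 0.883). Trim56 stood higher, at 57.1 CPM with SPT6 siRNA and 48.6 CPM with control siRNA, a ratio of 1.18 (1.04 to 1.33). The ratios of Trim21 (0.812, interval 0.571 to 1.14), Trim34a (0.998, 0.453 to 2.13) and Trim14 (1.13, 0.359 to 3.42) had wide intervals, which cover counting error only.

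Reads gained with IFN-beta over the untreated library were on average fewer with SPT6 siRNA for 7 members. The share of all genes with a smaller average gain is not given here. Trim14, the exception, changed by 0.249 CPM on average with SPT6 siRNA and by -0.179 CPM with control siRNA. The gain of Trim26 was 29.8 and 10.8 CPM with SPT6 siRNA and 52.7 and 36.4 CPM with control siRNA, on average 0.457 times as large. That of Pml was 32.5 and 37.9 CPM with SPT6 siRNA and 69.2 and 62 CPM with control siRNA, 0.537 times as large. Trim25 gained 259 and 235 CPM with SPT6 siRNA and 327 and 283 CPM with control siRNA, 0.81 times as large. For these 3 of 8 genes the gains with SPT6 siRNA lay below those with control siRNA without overlap, as for 18.3% of all genes tested.

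The gains of Trim21, Trim30a, Trim56 and Trim34a were 0.677, 0.698, 0.752 and 0.771 times as large with SPT6 siRNA and overlapped between groups. The fitted difference of the log2 responses, which tests this on a relative scale, was -0.50 ± 0.40 for Trim26, -0.48 ± 0.29 for Pml and -0.37 ± 0.34 for Trim56. It was -0.34 ± 0.75 for Trim34a, -0.24 ± 0.52 for Trim21, -0.22 ± 0.30 for Trim25 and -0.13 ± 0.70 for Trim30a. Only Trim14 was above 0, at 0.78 ± 1.18. The median over the 8 genes was -0.29, against -0.01 over all genes. None of the 8 was called (adjusted p = 1 for each, edgeR; 0% of all genes were called) and none had an unadjusted p under 0.05, as 0.379% of all genes did, and DESeq2 and limma-voom also called 0 genes. Without control siRNA IFN-beta replicate 1 the median was -0.02, with Trim21 at 0.07, Trim30a at 0.22 and Trim34a at 0.09.

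**Figure D4:**
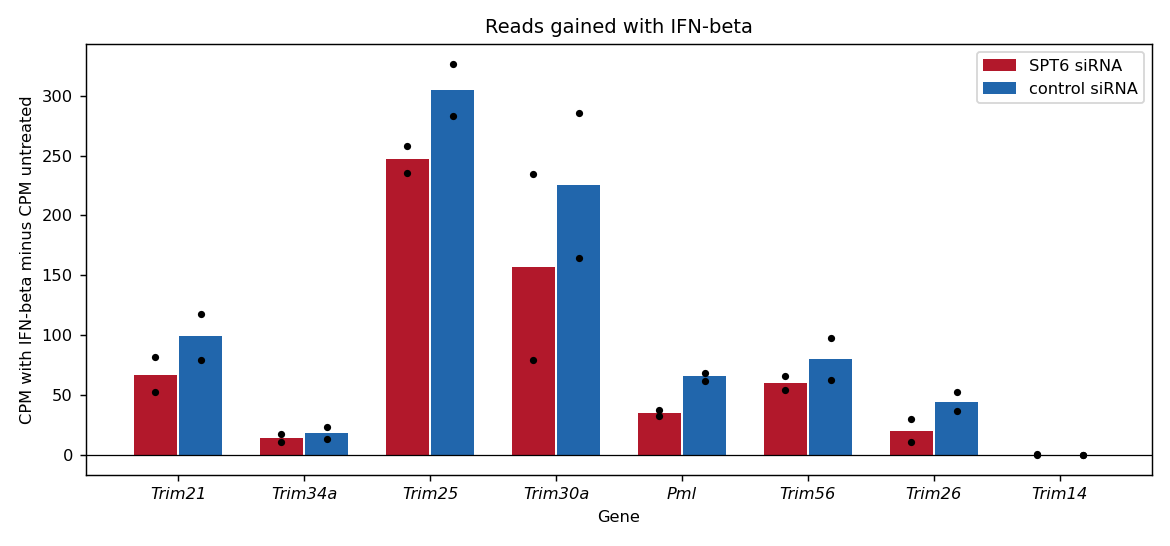
CPM with IFN-beta minus CPM in the untreated library of the same siRNA; bars are means of 2 libraries and points the single libraries. The gains with SPT6 siRNA and control siRNA do not overlap for Trim25, Trim26 and Pml, 3 of 8 genes, where 18.3% of all genes tested had both SPT6 siRNA gains below both control siRNA gains.

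Trim30a and Trim34a lie among close relatives. Reads without a unique alignment, 27.9% to 31.3% of all reads per library, were counted to no gene. Reads shared between near-identical copies may therefore be missing from these genes, which was not tested. Trim30d, beside Trim30a, stood at 127 and 47.5 CPM with SPT6 siRNA and IFN-beta, against 49.5 CPM untreated, and at 165 and 86.3 CPM with control siRNA and IFN-beta, against 65.8 CPM untreated. Its log2 difference with control siRNA, 0.93 ± 0.70, stood beside 2.05 ± 0.54 for Trim30a, and the difference between these genes was not tested. Trim34b stood at 7.14 and 2.96 CPM with SPT6 siRNA and IFN-beta, against 0.36 CPM untreated, and at 8.88 and 4.75 CPM with control siRNA and IFN-beta, against 0.575 CPM untreated.

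Trim12c stood at 114 and 68 CPM with SPT6 siRNA and IFN-beta, against 25.7 CPM untreated, and at 121 and 74.5 CPM with control siRNA and IFN-beta, against 27.8 CPM untreated. Trim30b and Trim12a had at most 6 and 3 counts in any library and were not tested. The promoter windows of Trim30d and Trim12c held the response element core and that of Trim34b did not. Replicate 2 was the lower IFN-beta library for Trim30d, Trim34b and Trim12c with either siRNA, as for Trim30a and Trim34a.

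Outside the 8 genes, 59 other symbols of the form Trim plus a number were counted, 7 of them at 0 in all libraries, and 38 were tested. Their median log2 response to IFN-beta was 0.03 with SPT6 siRNA and 0.13 with control siRNA, also with Trim71, at 0 counts in the control siRNA untreated library, set to its bound from 3 counts. The edgeR test called none of them with either siRNA. DESeq2 gave Trim34b and Trim12c an adjusted p of 0.0181 and 0.00113 with control siRNA. At an unadjusted p under 0.05, 2 were higher (3.84% of all genes) and 2 lower with SPT6 siRNA, and 3 were higher (5.29% of all genes) and 3 lower with control siRNA. The shares of all genes lower at that level are not given here, so the counts of lower genes cannot be set against them. The 4 with the smallest p with control siRNA were Trim34b (log2 3.54 ± 0.84), Trim12c (1.82 ± 0.45), Trim24 (-0.63 ± 0.20) and Trim46 (-0.97 ± 0.33), with adjusted p from 0.356 to 0.522.

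**Figure D5:**
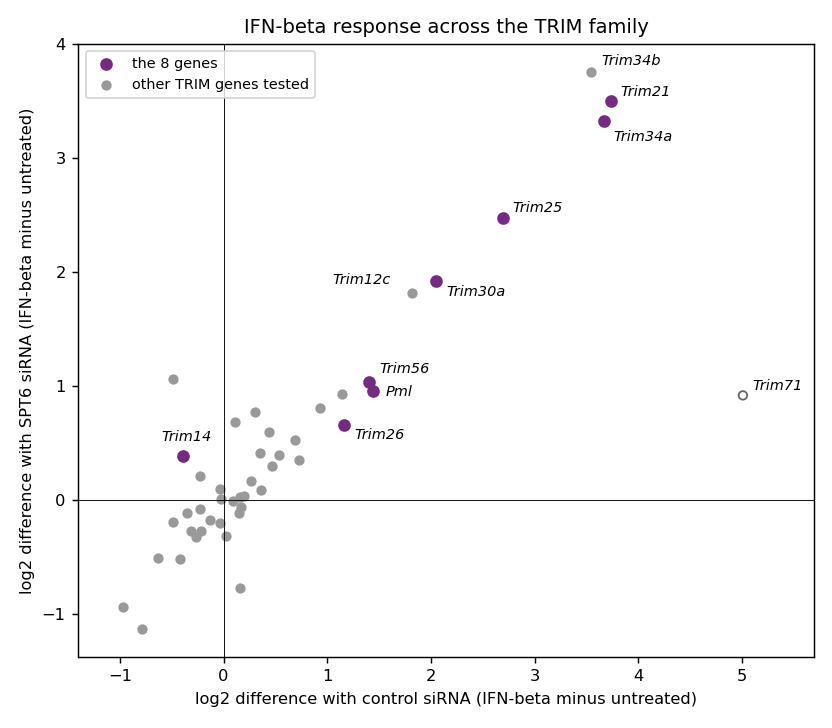
Fitted log2 IFN-beta response of TRIM genes with control siRNA (horizontal) and SPT6 siRNA (vertical); purple points are the 8 genes and grey points the other 38 tested. Trim34b and Trim12c lie among the responsive members; the open point, Trim71, rests on 0 counts in the control siRNA untreated library and its position is no measure of size.

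In the comparison of SPT6 siRNA with control siRNA under IFN-beta, the other TRIM genes had a median of -0.08, and edgeR called none. At an unadjusted p under 0.05 there were 2, both higher, where 11.7% of all genes were at that level in either direction. Trim72, known from membrane repair in muscle, had 13 and 42 counts with SPT6 siRNA and 4 and 4 with control siRNA (log2 3.19 ± 0.71, adjusted p = 0.302). Trim71, a regulator of stem cell development, had 8 and 27 counts with SPT6 siRNA and 2 and 8 with control siRNA (2.27 ± 0.80, adjusted p = 0.377). Next by p were Trim6 (-0.69 ± 0.37) and Trim11 (0.32 ± 0.18).

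Partners of PML were set beside Pml. Of 28 nuclear body and SUMO genes, all tested, edgeR called none in the IFN-beta response with either siRNA, and 2 were higher at an unadjusted p under 0.05 with each. The shares of all genes at that level were 3.84% with SPT6 siRNA and 5.29% with control siRNA. Daxx, a histone chaperone of these bodies, stood at 71.2 and 53.4 CPM with SPT6 siRNA and IFN-beta, against 15.6 CPM untreated, and at 119 and 98.6 CPM with control siRNA and IFN-beta, against 24.7 CPM untreated. Its response with control siRNA was 2.13 ± 0.29 (adjusted p = 0.0984), followed by the body components Sp100 (3.25 ± 1.01) and Sp110 (2.58 ± 1.06), and DESeq2 called Daxx and Sp110 (adjusted p = 6.44e-08 and 0.0324). Without control siRNA IFN-beta replicate 1 the difference was 2.47 for Sp100 and 1.47 for Sp110. Without SPT6 siRNA IFN-beta replicate 1 or 2, edgeR called Daxx (adjusted p = 0.0444 and 0.0452). The list's median was 0.16 with SPT6 siRNA and 0.17 with control siRNA. In the siRNA comparison with IFN-beta, Daxx averaged lower with SPT6 siRNA (-0.80 ± 0.21, adjusted p = 0.327, edgeR). Ubn1 (0.53 ± 0.17) and the SUMO protease gene Senp2 (0.65 ± 0.24) averaged higher. The siRNA groups did not overlap for Daxx, Ubn1 or Senp2. Such a separation was found downward for 21.3% of all genes tested and upward for 22.7%. None of the 28 was called by edgeR (2 higher and 2 lower at an unadjusted p under 0.05). Of all genes, 11.7% were at that level in either direction and 4.31% were lower. DESeq2 gave Daxx, Ubn1 and Senp2 adjusted p from 0.207 to 0.538.

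Of 25 genes of RIG-I and STING signalling, 24 were tested. At an unadjusted p under 0.05 by edgeR, 6 were higher with SPT6 siRNA (3.84% of all genes) and 6 with control siRNA (5.29%). The edgeR test called 0 higher with SPT6 siRNA and 1 with control siRNA, Irf7, whose product drives transcription of interferon genes. With control siRNA Irf7 differed by log2 5.19 ± 0.55 (adjusted p = 0.0432, and 0.0515 at a count minimum of 30). That difference was 4.86 without control siRNA IFN-beta replicate 1. With SPT6 siRNA Irf7 differed by 6.32 ± 0.67 (adjusted p = 0.0503, edgeR), resting on 3 counts in the untreated library. Ddx58, which encodes RIG-I, stood at 348 and 206 CPM with SPT6 siRNA and IFN-beta, against 40.9 CPM untreated. With control siRNA it stood at 476 and 316 CPM with IFN-beta, against 41.4 CPM untreated (3.26 ± 0.46, adjusted p = 0.123). Zc3hav1, which encodes the antiviral zinc finger protein ZAP, differed by 1.85 ± 0.24 with control siRNA (adjusted p = 0.0822, edgeR). DESeq2 called both Ddx58 and Zc3hav1 higher with control siRNA, as it did 1.48% of all genes. The medians of the list were 0.13 with SPT6 siRNA and 0.22 with control siRNA. In the comparison of the siRNAs with IFN-beta its median was -0.13 and the smallest p were those of Mb21d1, the gene of the DNA sensor cGAS (-0.66 ± 0.24), Usp21 (-0.41 ± 0.21) and Ddx58 (-0.52 ± 0.31), with adjusted p from 0.378 to 0.557.

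The genes most like 3 of the members across the 6 libraries were found by the root mean square difference of their log2 CPM, each centred on its own mean, among 9815 genes. Nearest to Trim25 were Stat2 (0.196), Fam46a (0.213) and Ifi35 (0.242). Nearest to Trim30a were AW011738 (0.0935), Psmb9 (0.152) and Ifit2 (0.161). Nearest to Pml were Ptchd4 (0.109), Timp1 (0.127) and Rnf31 (0.133). All 6 libraries and their normalisation are shared between these genes, so the values describe a likeness of profile.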

How the data were processed

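Whole-number counts per gene symbol in 6 libraries, made by the authors and deposited without normalisation, were analysed. Per the submitters' processing notes, tools were HTSeq 0.6.1p1, TopHat2 2.1.0 and DESeq2, and builds GRCm38 and mm10, without roles; the annotation is not given in the sources used here. Lines naming no gene held 62% to 67.1% of all reads and were left out. Genes were kept by filterByExpr (count minimum of 10), scaled by TMM and tested with edgeR 4.0.16 (robust quasi-likelihood, 4 group means, 2 residual degrees of freedom) in R 4.3.3, with Benjamini-Hochberg adjustment over all 13185 genes and calls at an adjusted p under 0.05. SE is the log2 difference divided by the root of its F statistic. Log2 CPM used a prior count of 2. The script was tested on simulated counts. Alternatives used DESeq2 1.42.0, limma 3.58.1 (voom), other scalings and filters, a replicate block and libraries left out. The 8 genes, the lists and the tests were chosen with earlier results of these data known. Named genes were the 8, their cluster relatives, Supt6, the 4 other TRIM genes and up to 3 genes of each other list with the smallest p in the control siRNA response and in the siRNA comparison with IFN-beta, and the 3 genes nearest to Trim25, Trim30a and Pml with a mean log2 CPM of at least 3. GENCODE M21 matched 22750 of 24062 symbols. Same-group libraries were not duplicates (chi-square per degree of freedom 34.7 with SPT6 siRNA and 39.4 with control siRNA). Promoters are from RefSeq (GRCm38.p6).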

Additional observations from a re-analysis of the deposited data

How the results depend on the processing

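In the IFN-beta response with SPT6 siRNA, edgeR called 6 genes, 1 of them a member; these became 129 and 4 with DESeq2, 0 and 0 with limma-voom, 46 and 3 without a count filter, and 9 to 25 and 0 to 2 with 1 library left out, and scaling by library size alone gave 12 genes and 1 member. With control siRNA, 18 genes and 2 members became 204 and 6 with DESeq2, 5 and 1 with limma-voom, 77 and 5 without a filter, 10 and 1 at a count minimum of 30 (Trim21 at an adjusted p = 0.0573), and 16 to 52 and 1 to 2 with 1 library left out. In the siRNA comparison with IFN-beta, 0 genes became 62 with DESeq2 and 66 without a filter, with 0 members in each. The cause of these shifts was not tested. Over the 11 alternatives the adjusted p of Trim21 in the control siRNA response ranged from 2.37e-61 to 0.112, that of Trim25 from 2.30e-33 to 0.0482, and that of Trim25 in the SPT6 siRNA response from 8.32e-28 to 0.0878.

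The replicate numbers are shared by the IFN-beta groups but the labels do not say that a number marks a shared culture or day. Replicate 2 minus replicate 1 differences of the 2 groups correlated across 13185 genes (r = 0.56, genes not being independent). With the replicate number as a block, which leaves 1 residual degree of freedom, edgeR called 545 genes and 7 members with SPT6 siRNA, 957 and 7 with control siRNA, 2638 and 4 (Pml, Trim21, Trim26 and Trim30a, all lower) in the siRNA comparison with IFN-beta, and 4 and 0 for the difference of responses. Under the block the IFN-beta response of Trim14 with SPT6 siRNA turned to -0.09.

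With 1 IFN-beta library left out, directions turned for 7 values. In the siRNA comparison Trim34a ranged from -0.70 to 0.08 and Trim56 from -0.31 to 0.08, above 0 without control siRNA replicate 1. In the SPT6 siRNA response Trim14 ranged from -0.47 (without SPT6 siRNA replicate 2) to 0.89. In the difference of responses the ranges were -0.59 to 0.07 for Trim21, -0.81 to 0.29 for Trim30a, -0.72 to 0.09 for Trim34a and -0.08 to 1.25 for Trim14. Trim21, Trim30a (0.22) and Trim34a were above 0 without control siRNA replicate 1, and Trim30a was above and Trim14 below 0 without SPT6 siRNA replicate 2. Scaled by library size alone, which put the median of all genes at -0.10 in the control siRNA response, against -0.01 by TMM, the untreated siRNA differences of Trim25 (0.01), Trim34a (0.04) and Pml (0.01) turned to above 0. Depth limits Trim14 and untreated Trim34a, at 7 to 19 untreated counts.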

Other observations

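Enzymes that work with TRIM ligases were set beside them. All 12 E2 enzymes and effectors listed were tested, and all 12 lay above 0 in the IFN-beta response with either siRNA, against single untreated libraries. The smallest log2 differences were 0.05 with SPT6 siRNA and 0.01 with control siRNA. The median was 0.25 in each, where the medians of all genes were 0.00 and -0.01. The edgeR test called none, and 1 was higher at an unadjusted p under 0.05 with each siRNA (3.84% and 5.29% of all genes). Ube2l6, the conjugating enzyme of ISG15, stood at 48.8 and 27.1 CPM with SPT6 siRNA and IFN-beta, against 14 CPM untreated. With control siRNA it stood at 68.2 and 44.1 CPM with IFN-beta, against 16.2 CPM untreated (log2 difference 1.79 ± 0.46, adjusted p = 0.421 by edgeR and 0.00592 by DESeq2). Next by p were Ube2n (0.38 ± 0.21) and Vcp (0.44 ± 0.28). In the siRNA comparison with IFN-beta the list's median was -0.03, with Ube2l6 at -0.57 ± 0.34, Vcp at -0.34 ± 0.22 and Ube2v1 at 0.28 ± 0.19, none called by edgeR and none at an unadjusted p under 0.05.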
